A study of Homo sapiens with 25 samples.

Results

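The MYC locus was described here as every peak of 23 ChIP-seq peak lists that overlapped chr8:128700001-131000000 of the human genome build hg18. A peak is a stretch of the genome in which sequenced fragments pulled down by an antibody pile up enough to be called. Of the 918840 peaks in all lists, 941 lay in this 2300 kb interval. They fell into 4 parts. The MYC gene (chr8:128817001-128823000) held 23 peaks, the 500 kb after its end held 413, the remaining 1677 kb of the far downstream side held 455, and the 117 kb before the gene held 50. Within the interval, peaks were taken by position alone, but the interval and its parts were chosen with earlier results of these data known.

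The cells were NB4, an established human line from acute promyelocytic leukaemia that carries the PML-RARA fusion, so every group shares that background. Cells were treated for 24 h with DMSO (the vehicle), MC_2580 (an inhibitor of the demethylase LSD1, dose not given in the sources used here), retinoic acid (RA) at 0.01 µM, RA at 1 µM, or MC_2580 with RA 0.01 µM, called the combination. The marks H3K4me1, H3K4me2, H3K4me3 and H3K27ac were each profiled in these 5 conditions, LSD1 in DMSO and MC_2580, and the repressor GFI1 in untreated cells. The labels of the H3K4me3 combination library conflict, with RA at 1 µM in its title and 0.01 µM as the treatment, and the latter was followed. There are no replicates (1 library for each antibody in each condition), so no value below has an error, no test was run, and each difference is one between 2 libraries. The read depth behind the peaks is unknown, and a missing peak is a missing call, not an absent mark.

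MYC encodes a transcription factor that drives growth and proliferation and is active in many leukaemias. In blood cells its transcription is known to depend on distant enhancers, including a cluster nearly 2 megabases downstream that is active in blood stem cells and in myeloid leukaemia. H3K4me1 marks enhancers, H3K4me3 marks active promoters and very active enhancers, H3K27ac marks active enhancers and promoters, and H3K4me2 occurs at both. LSD1 removes methyl groups from H3K4me1 and H3K4me2 and is brought to many of its sites in myeloid cells by GFI1. In the RefSeq gene order of GRCh38, the long non-coding RNA gene PVT1 follows MYC, and CCDC26 is the last long non-coding RNA gene before the protein-coding genes GSDMC and CYRIB. Positions of these genes on hg18 were not used, so peaks are placed by their distance from MYC and not assigned to other genes.

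Across all lists, the histone lists held 21688 to 72810 peaks each, the LSD1 lists 12562 (DMSO) and 18822 (MC_2580), and the GFI1 list 29601. The score is the authors' own value per peak, larger for a stronger call. Scores of different lists are given side by side as values only, since the lists need not share a scale, and many peaks tie at 3100, so no order is drawn above that value. The 5 H3K27ac lists differed in length, from 24552 peaks with MC_2580 and 32789 in DMSO to 55793 with RA 0.01 µM. Counts in the locus are therefore set beside the share of the whole list that did the same. The tissue label could not be checked against marker genes, since the lists carry no gene names.

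Each histone mark covered a larger share of the locus than of the genome in every condition, by wider rather than more numerous peaks for H3K27ac. H3K4me1 peaks covered 17.5% of the locus in DMSO, against 6.60% of the genome, and 15.01% to 16.7% in the treated libraries, against 5.23% to 6.86%. H3K27ac peaks covered 9.22%, 6.92%, 7.41%, 10.3% and 8.27% in the order DMSO, MC_2580, RA 0.01 µM, RA 1 µM and combination, against 4.14%, 3.10%, 6.47%, 4.63% and 4.84% of the genome, so the gap was smallest with RA 0.01 µM. In number, H3K27ac had 5.22, 3.48, 12.2, 11.3 and 10 peaks per Mb in the locus, fewer than the 10.7, 7.98, 18.1, 12.6 and 13.4 per Mb of the genome. H3K4me1 counted 50 peaks in DMSO, 45 with MC_2580, 62 with RA 0.01 µM, 59 with RA 1 µM and 66 in the combination. H3K27ac counted 12, 8, 28, 26 and 23 peaks in the same order. Most calls sat in 2 blocks, one that starts at MYC and runs through the nearer part of the 500 kb after it, and one that ends 1957 kb past the gene.

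**Figure D1:**
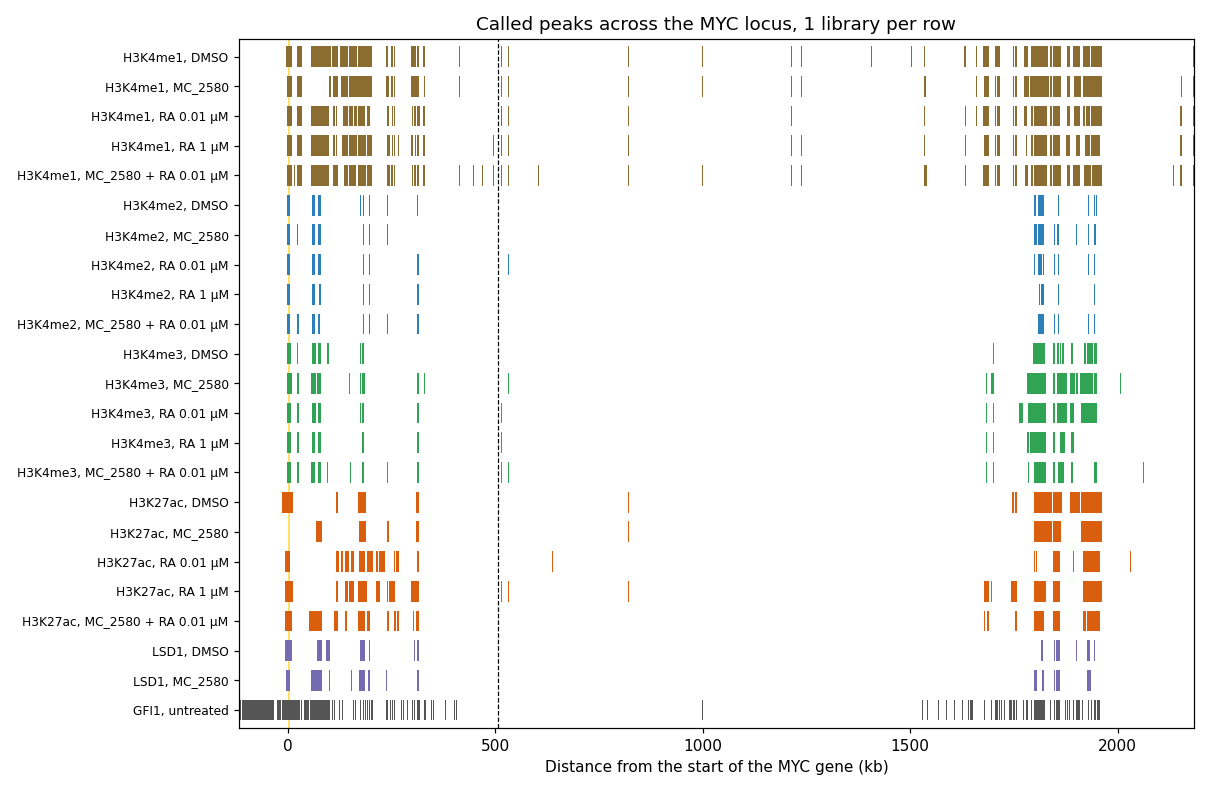
Called peaks across the MYC locus, 1 library per row. The horizontal axis is the distance from the start of the MYC gene in kb, each bar is a peak drawn to its width, the yellow line marks the gene and the dashed line the end of the part 500 kb downstream; peaks of every antibody gather in the same 2 blocks.

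At the MYC gene itself, the 3 methylation marks were called in all 5 conditions and H3K27ac in 4. The H3K4me3 peak measured 10.6 kb in DMSO, 11.2 kb with MC_2580, 10.9 kb with RA 0.01 µM, 10.8 kb with RA 1 µM and 10.8 kb in the combination, with a score of 3100 each time. These widths lie close together. The H3K4me2 peak also scored 3100 throughout and measured 7.57, 7.45, 7.24 and 7.56 kb in DMSO, MC_2580, RA 0.01 µM and the combination. With RA 1 µM it was called as a peak of 6.38 kb and a second of 0.941 kb. H3K4me1 measured 13.5, 12.6, 11.2, 11.6 and 12.9 kb in the order DMSO, MC_2580, RA 0.01 µM, RA 1 µM and combination. Its scores in that order were 3100, 2807, 490, 2593 and 3100, each above its list's median of 281, 253, 179, 225 and 312.

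H3K27ac was the mark that differed at the gene. In DMSO it formed a peak of 26.6 kb with a score of 1165 (chr8:128802361-128828992), which began 14.6 kb before the gene. With MC_2580 there was no H3K27ac peak on the gene, and the nearest one lay 62.4 kb past its end. The peak was present with RA 0.01 µM (12.2 kb, score 3100), with RA 1 µM (19.2 kb, score 2537) and in the combination (15.7 kb, score 3230), in each case narrower than in DMSO. To set the MC_2580 gap in context, DMSO peaks at least as strong or as wide as the one at MYC were followed, a comparison chosen after seeing the data. Of 7140 DMSO H3K27ac peaks with a score at least as high, 30 (0.420%) had no MC_2580 peak on them. Of 135 at least as wide, 16 (11.9%) had none, and of 97 that met both limits, 5 (5.15%) had none. Over the whole list, 35% of DMSO H3K27ac peaks had no MC_2580 peak.

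LSD1 and GFI1 were both called on MYC. The LSD1 peak measured 16.7 kb in DMSO with a score of 363, near its list's median of 404, and ranked 8 by width among 12562. With MC_2580 it measured 9.94 kb with a score of 3100, where the list's median was 709. The GFI1 peak over the gene (chr8:128807703-128824391) measured 16.7 kb, scored 3100, the highest value in its list, and was the second widest of the 29601 (rank 2). Thus the gene that lacked an H3K27ac call with MC_2580 still carried LSD1, H3K4me1, H3K4me2 and H3K4me3 calls in the same condition.

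**Figure D2:**
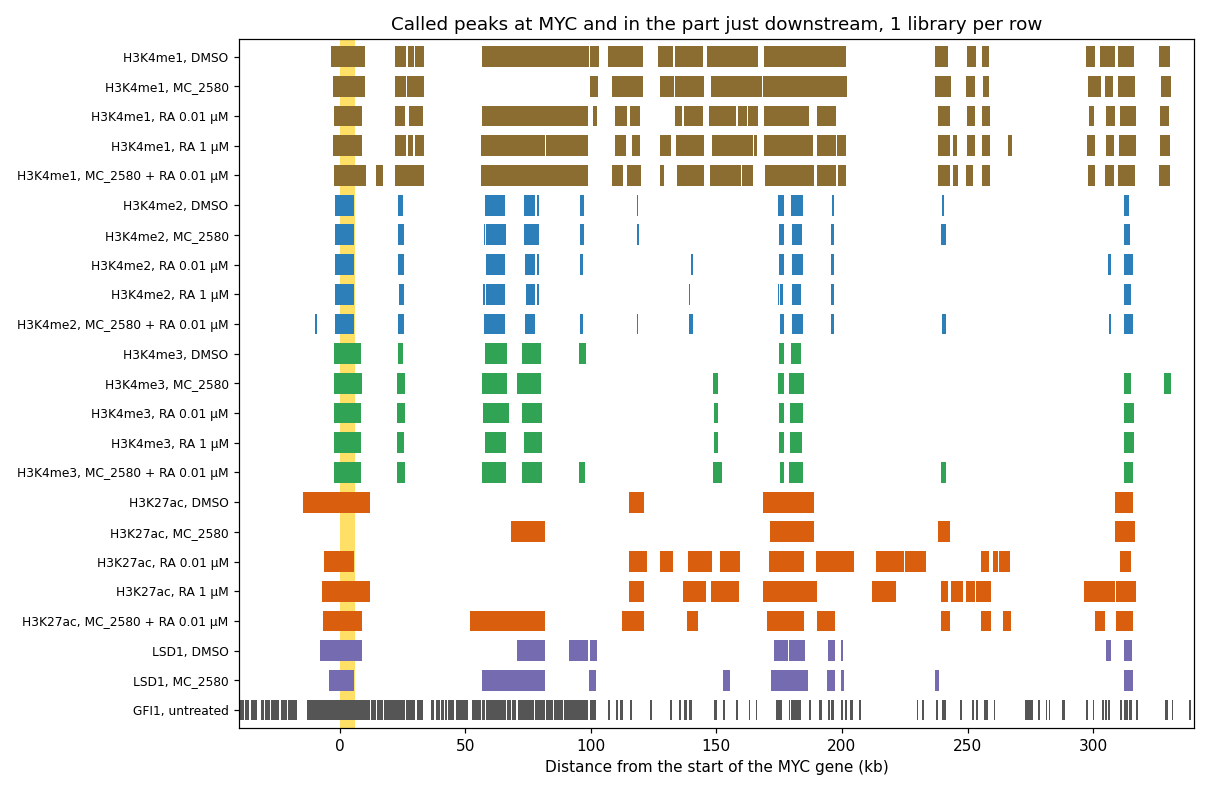
Called peaks on and just downstream of MYC, 1 library per row, with the distance from the start of the gene in kb on the horizontal axis and the gene in yellow. The H3K27ac row of MC_2580 has no peak on the gene, and the 3 rows with RA hold more H3K27ac peaks downstream than the DMSO row, which has 3.

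In the 500 kb downstream of MYC, H3K27ac covered more bases in every RA-containing library than in DMSO. It covered 39.6 kb in DMSO, 44.1 kb with MC_2580, 93.3 kb with RA 0.01 µM, 101 kb with RA 1 µM and 89.0 kb in the combination. The ratio over DMSO was 1.11 with MC_2580, 2.35 with RA 0.01 µM, 2.54 with RA 1 µM and 2.25 in the combination, while the whole lists gave 0.748, 1.56, 1.12 and 1.17. The number of peaks went from 3 in DMSO to 4, 17, 13 and 12. On the log2 scale the RA 0.01 µM ratio was 1.24, and it was 0.07 when the 5 H3K27ac lists were first reduced to equal length by score. With the same reduction the RA 1 µM and combination ratios were 0.97 and 0.73, against 1.34 and 1.17 as reported. The 17 peaks with RA 0.01 µM had a median score of 112, and the 13 with RA 1 µM one of 94.2.

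Most of these RA peaks had no DMSO peak under them. A peak with no DMSO peak of the same mark overlapping it by at least 1 base is called gained here, and a DMSO peak with no treated peak is called lost. In this part 14 of 17 H3K27ac peaks were gained with RA 0.01 µM, against 53.9% of the whole list. With RA 1 µM 10 of 13 were gained, against 33.3%, and in the combination 9 of 12, against 37.1%. With MC_2580 2 of 4 were gained, against 11.2%. The RA libraries lost none of the 3 DMSO peaks of this part, and the MC_2580 library lost 1.

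Across the whole locus, lost H3K27ac peaks numbered 6 of 12 with MC_2580 (35% in the list), 4 of 12 with RA 0.01 µM (18.3%), 2 of 12 with RA 1 µM (20.9%) and 4 of 12 in the combination (21.2%). With a minimum score of 100 in every list, DMSO included, the gained counts of the 500 kb part were 8, 4 and 5 in the 3 RA libraries. The weakest DMSO peak of that part (score 86.8) falls below this limit, so treated peaks over it then count as gained. The share of the whole lists gained under this limit was not computed.

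To follow single positions, H3K27ac peaks of the 5 lists lying within 1 kb of each other were joined into 24 elements, numbered E1 to E24 from MYC outward. E1 is the gene, E2 to E11 lie in the 500 kb part and E12 to E24 beyond it. H3K27ac was called on 10 elements in DMSO, 8 with MC_2580, 16 with RA 0.01 µM, 17 with RA 1 µM and 14 in the combination. Elements E6, E10, E20, E21 and E23 had it in all 5 conditions, and all 5 of them also carried an LSD1 peak in DMSO or MC_2580, as did 5 of the other 19. These 5 measure 20.8 to 50.7 kb and the other 19 measure 1.19 to 29.9 kb. A longer element meets a peak more easily, and the share over such elements in the genome was not computed. None of the 24 had H3K27ac in DMSO alone, while 4 had it with RA 0.01 µM alone and 3 with RA 1 µM alone. These were weak calls, with top scores of 54.4 to 94.6 and of 80.9 to 131, from lists longer than that of DMSO. How often such elements occur in the rest of the genome was not computed.

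E6 (chr8:128985587-129021766) carried the most H3K27ac of the near elements. It held 20.3 kb in DMSO, 17.9 kb with MC_2580, 28.9 kb with RA 0.01 µM, 21.5 kb with RA 1 µM and 21.9 kb in the combination. RA 0.01 µM was thus highest and MC_2580 lowest. H3K4me1 covered 25.3 to 33.4 kb of E6 in every condition, and E6 also held 4 LSD1 peaks in DMSO, 3 with MC_2580 and 11 GFI1 peaks.

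E10 (chr8:129113336-129134178), 290 kb past the gene, held 7.18, 7.87, 4.404, 20.3 and 10.6 kb of H3K27ac in the order DMSO, MC_2580, RA 0.01 µM, RA 1 µM and combination. The highest score on it was 965 in DMSO and 143 with MC_2580, and 2078, 3100 and 2792 in the 3 RA libraries. H3K4me3 was not called on E10 in DMSO and covered 2.83 to 4.11 kb there in the other 4 conditions.

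E5 and E9 had H3K27ac in all 3 libraries with RA but no call in DMSO or with MC_2580. E5 (chr8:128953603-128976203) held none in DMSO or with MC_2580, 17.3 kb with RA 0.01 µM, 20.1 kb with RA 1 µM and 4.38 kb in the combination, with a top score of 1316 with RA 1 µM. H3K4me1 already covered 21.02 kb of E5 in DMSO and 19.4 to 20.2 kb in the other conditions. E9 (chr8:129066464-129084169) held 9.14, 9.70 and 7.15 kb of H3K27ac in the 3 RA libraries, with scores of at most 144, on 6.69 kb of H3K4me1 in DMSO. On both elements, H3K4me1 was thus called in DMSO where H3K27ac was not. E7 (chr8:129028814-129050565) had H3K27ac with RA 0.01 µM (19.5 kb, top score 127) and RA 1 µM (9.27 kb, top score 73.4) and no H3K4 methylation call in any condition.

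E2 (chr8:128869051-128898903), starting 46.0 kb past the gene, had H3K27ac only with MC_2580 and in the combination. These were 13.5 kb with a score of 1514 and 29.6 kb with a top score of 2144. The same element had a gap in H3K4me1: this mark covered 25.2 to 25.4 kb of it in the other 4 conditions and none with MC_2580, where the nearest H3K4me1 peaks lay 18.6 kb before and 17.7 kb after it. In the MC_2580 libraries H3K4me2 covered 14.1 kb of E2 and H3K4me3 19.98 kb, against 12.9 and 16.6 kb in DMSO. E2 held 2 LSD1 peaks in DMSO, 3 with MC_2580 and 13 GFI1 peaks. With MC_2580, H3K27ac was thus not called on the gene and H3K4me1 not on the next element, and each of these rests on 1 library.

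With RA, the methylation marks differed less from DMSO than H3K27ac did in the 500 kb part, while with MC_2580 the H3K27ac ratio of 1.11 was nearer to 1 than the 0.753 of H3K4me1 or the 1.401 of H3K4me3. H3K4me1 covered 180 kb of it in DMSO, 135 kb with MC_2580, 149 kb with RA 0.01 µM, 161 kb with RA 1 µM and 172 kb in the combination, and the 1 DMSO peak of this part lost with MC_2580 is the one over E2 (chr8:128873524-128916315, 42.8 kb, rank 16 by width of 57630). H3K4me2 covered 28.4, 30.7, 28.2, 24.4 and 32.1 kb. H3K4me3 covered 30.1, 42.1, 38.1, 33.1 and 41.4 kb, ratios of 1.401, 1.26, 1.10 and 1.38 over DMSO against 1.57, 1.499, 1.33 and 1.32 for the whole lists.

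The peaks of these marks also differed in number and width. H3K4me1 had 19 peaks in the 500 kb part in DMSO and 19 with MC_2580, with median widths of 5.17 and 4.396 kb, and 27, 29 and 31 narrower ones in the 3 RA libraries, with medians of 3.51, 3.13 and 3.55 kb. The same shift ran through the whole H3K4me1 lists, with a median width of 2.52 kb in DMSO and 1.95, 2.00 and 2.05 kb in the RA libraries. Of the RA peaks in this part, 0 of 27, 4 of 29 and 9 of 31 were gained, against 11.7%, 14.2% and 21.9% of the whole lists. H3K4me2 had 13, 16, 15, 14 and 15 peaks in the order DMSO, MC_2580, RA 0.01 µM, RA 1 µM and combination, with median scores of 469, 422, 150, 212 and 359, where the whole lists had 277, 288, 326, 337 and 343. H3K4me3 had 6, 8, 8, 7 and 9 peaks, with median widths between 3.09 and 3.79 kb.

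Over the whole locus, H3K4me1 gains numbered 1 of 45 peaks with MC_2580 (8.54% in the list), 3 of 62 with RA 0.01 µM (11.7%), 6 of 59 with RA 1 µM (14.2%) and 15 of 66 in the combination (21.9%). Its losses from 50 DMSO peaks were 4 (13.1%), 4 (19.5%), 4 (14%) and 3 (7.79%) in the same order. H3K4me2 gained 8 of 35 (22.3%), 4 of 29 (14.3%), 3 of 28 (22.1%) and 4 of 30 (23.2%), and lost 0 (11%), 5 (19.7%), 8 (19.5%) and 2 (14.4%) of 28. H3K4me3 gained 10 of 23 with MC_2580 (33.5%), 8 of 21 with RA 0.01 µM (29.2%), 7 of 19 with RA 1 µM (25.6%) and 11 of 26 in the combination (26.6%). It lost 1 of 18 DMSO peaks with MC_2580 (2.2%), 1 with RA 0.01 µM (3.97%), 6 with RA 1 µM (6.12%) and 3 in the combination (6.29%). The 6 of 18 H3K4me3 peaks lost with RA 1 µM were the widest departure from a list's share among these 24 counts.

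**Figure D3:**
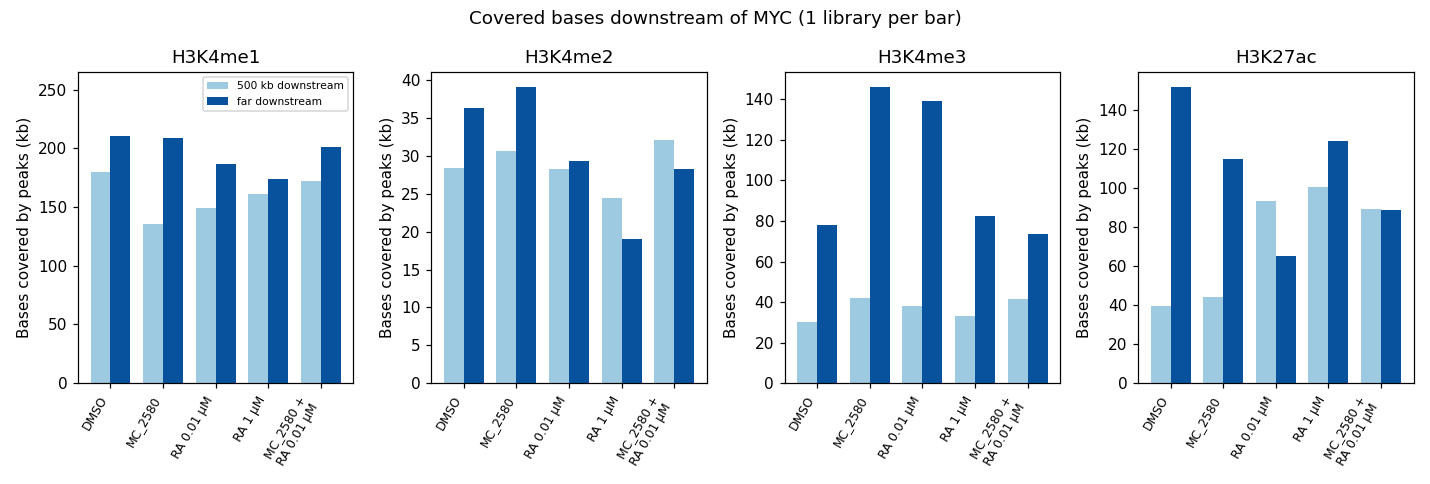
Bases covered by peaks of each histone mark, in kb, in the part 500 kb downstream of MYC (light) and the far downstream part (dark), 1 library per bar and 1 panel per mark, each with its own scale from 0. For H3K27ac the light bars rise from 39.6 kb in DMSO to 89.0 kb or more in the 3 RA libraries, while the dark bars are lower than DMSO's 152 kb in all 4 treated libraries.

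In the far downstream part H3K27ac cover went the other way, least clearly with RA 1 µM. It covered 152 kb in DMSO, 115 kb with MC_2580, 64.9 kb with RA 0.01 µM, 124 kb with RA 1 µM and 88.6 kb in the combination. The ratio over DMSO was 0.757 with MC_2580, close to the 0.748 of the whole list. It was 0.428 with RA 0.01 µM, 0.816 with RA 1 µM and 0.584 in the combination, where the whole lists gave 1.56, 1.12 and 1.17. The number of peaks did not fall with RA: it was 8 in DMSO, 4 with MC_2580, and 10, 12 and 10 in the RA libraries. When every peak was given the same width of 500 bases on either side of its centre, the log2 ratio turned from -1.23 to 0.32 with RA 0.01 µM, from -0.78 to 0.32 in the combination, and from -0.29 to 0.58 with RA 1 µM. That setting counts peaks, and newly called peaks enter it as well as pieces of DMSO ones. Gained far peaks numbered 0 of 4 with MC_2580 (11.2% in the list) and 3 of 10 with RA 0.01 µM (53.9%). With RA 1 µM they numbered 5 of 12 (33.3%) and in the combination 3 of 10 (37.1%). The longest far element without DMSO H3K27ac, E17, held 10.9 kb with RA 1 µM (score 292) and 6.76 kb in the combination. The median width of the far peaks was 12.8 kb in DMSO, 31.4 kb with MC_2580, and 3.08, 6.27 and 5.35 kb in the 3 RA libraries. A single weak DMSO peak of 24.2 kb (element E22 below, score 66.0) bears on these ratios. Without it, a setting added after seeing the data, they were 0.901 with MC_2580, 0.484 with RA 0.01 µM, 0.970 with RA 1 µM and 0.694 in the combination. Lost far peaks numbered 4 of 8 with MC_2580 (35% in the list), 4 with RA 0.01 µM (18.3%), 2 with RA 1 µM (20.9%) and 4 in the combination (21.2%). Under a minimum score of 100 in every list, DMSO included, each of these counts was 1. That limit also removes weak DMSO peaks from the 8, the one of E22 (score 66.0) among them. These counts therefore have a smaller base than those above. The share of the whole lists lost under this limit was not computed, so the fall in the counts has no scale beside it.

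Most of this cover lay in 4 adjacent elements, E20 to E23, which span 165 kb and start 1792 kb past the end of MYC. Together they held 140 kb of H3K27ac in DMSO, 113 kb with MC_2580, 61.2 kb with RA 0.01 µM, 90.7 kb with RA 1 µM and 77.7 kb in the combination. RA 0.01 µM was lowest. Without E22 the sums were 116 kb in DMSO, 113 kb with MC_2580, 58.1 kb with RA 0.01 µM, 90.7 kb with RA 1 µM and 77.7 kb in the combination, so MC_2580 then lay 2.70 kb below DMSO and the RA libraries stayed lower. They lie at about the distance given above for the blood enhancer cluster, although no enhancer coordinates were used here.

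E20 (chr8:130615203-130658906) differed the most between libraries. H3K27ac covered 43.5 kb of it in DMSO and 43.7 kb with MC_2580, 5.63 kb with RA 0.01 µM, 29.1 kb with RA 1 µM and 24.1 kb in the combination. Its top score was 221 with RA 0.01 µM, where the list's median was 158, and 3100 in the other 4 libraries. DMSO and MC_2580 lay together, the combination and RA 1 µM lower, and RA 0.01 µM lowest, so the lower RA dose alone had less cover than the higher dose. H3K4me1 on E20 hardly followed, at 37.3 to 41.9 kb, and H3K4me2 covered 20.3, 22.05, 14.5, 10.3 and 15.6 kb in the order DMSO, MC_2580, RA 0.01 µM, RA 1 µM and combination.

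The H3K4me3 peak over E20 was the widest of its entire list in all 5 conditions (rank 1). It measured 27.1 kb in DMSO, 46.0 kb with MC_2580, 44.0 kb with RA 0.01 µM, 39.6 kb with RA 1 µM and 28.8 kb in the combination, among 21688 to 29872 peaks. By comparison the H3K4me3 peak on the MYC promoter ranked 132 by width in DMSO.

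E23 (chr8:130729062-130779753) was the widest element. H3K27ac covered 50.5 kb of it in DMSO, 50.4 kb with MC_2580, 36.1 kb with RA 0.01 µM, 43.9 kb with RA 1 µM and 37.0 kb in the combination. In DMSO this was 1 peak of 50.5 kb, rank 8 by width of 32789, and with MC_2580 rank 5 of 24552. H3K4me3 on E23 covered 28.5 kb in DMSO, 38.6 kb with MC_2580 and 37.3 kb with RA 0.01 µM. It was not called there with RA 1 µM and covered 7.30 kb in the combination. H3K4me2 on E23 was lowest in the same library, at 3.64 kb with RA 1 µM against 9.01 kb in DMSO.

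E21 (chr8:130660921-130682783) was steadier, with 21.8, 19.0, 16.3, 17.6 and 16.6 kb of H3K27ac in the order DMSO, MC_2580, RA 0.01 µM, RA 1 µM and combination. E22 (chr8:130703285-130727499) had 24.2 kb in DMSO with a score of only 66.0, 3.13 kb with RA 0.01 µM and none in the other 3 libraries, so its loss is that of a weak call. E19 (chr8:130560801-130574151) had 9.63 kb in DMSO, 12.5 kb with RA 1 µM, 3.20 kb in the combination and none with MC_2580 or RA 0.01 µM, with scores of at most 169.

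**Figure D4:**
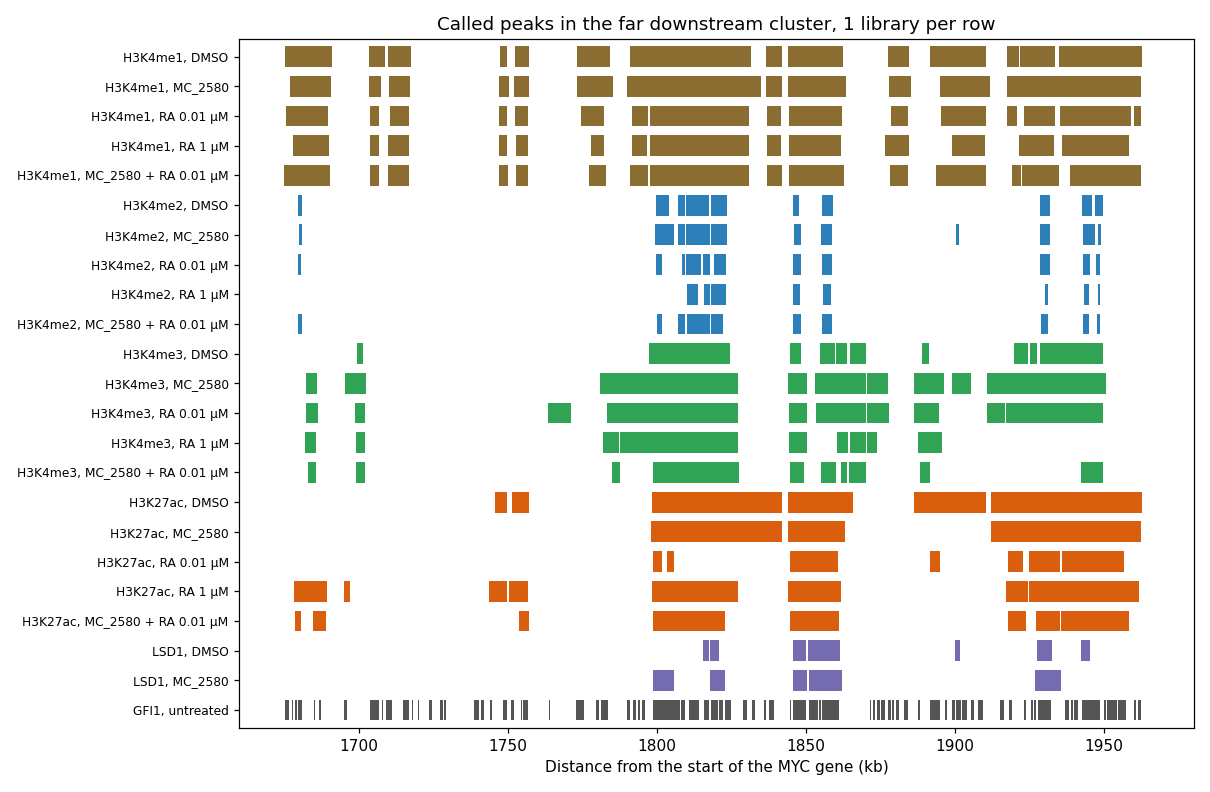
Called peaks in the far downstream block that holds E17 to E23, 1 library per row, with the distance from the start of MYC in kb on the horizontal axis. The H3K27ac rows show long unbroken peaks in DMSO and MC_2580 and shorter, broken ones in the RA rows, and the H3K4me3 row of RA 1 µM is empty at the right end, over E23.

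Broad H3K27ac peaks elsewhere gave a scale for this narrowing, in a comparison chosen after seeing the data. Of DMSO peaks at least 10 kb wide there were 1776 in the genome, 6 of them in the locus. The median such peak had 88.6% of its length covered by MC_2580 peaks, 90.7% with RA 0.01 µM, 93.3% with RA 1 µM and 90.1% in the combination. For the 6 in the locus the medians were 91.4%, 57.5%, 79.4% and 65.6%. The MC_2580 median hides a split, since the peaks on MYC and E22 had 0% covered, as had 7.38% of the 1776. The E20 peak kept 100% with MC_2580 and 12.9% with RA 0.01 µM, and 4.84% of the 1776 peaks kept as little as that or less with RA 0.01 µM. For the other peaks of the locus that share was 4.79% (E22) to 38.5% (E21).

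For the other marks, the far part followed its lists less evenly. H3K4me1 covered 210, 209, 187, 173 and 201 kb in the order DMSO, MC_2580, RA 0.01 µM, RA 1 µM and combination. H3K4me2 covered 36.4, 39.1, 29.3, 19.1 and 28.3 kb, and its RA 1 µM ratio of 0.525 over DMSO stood beside 0.919 for the whole list. H3K4me3 covered 78.1 kb in DMSO, 146 kb with MC_2580, 139 kb with RA 0.01 µM, 82.4 kb with RA 1 µM and 73.5 kb in the combination. Its ratios of 1.87, 1.78, 1.05 and 0.941 compare with 1.57, 1.499, 1.33 and 1.32 for the whole lists. With RA 1 µM 5 of its 11 far DMSO peaks were lost (6.12% in the list), and in the combination 3 (6.29%). MC_2580 and RA 0.01 µM lost 0 of them (2.2% and 3.97%). The far H3K4me3 peaks had a median width of 4.92 kb in DMSO, 6.44 kb with MC_2580, 7.61 kb with RA 0.01 µM, 3.69 kb with RA 1 µM and 2.68 kb in the combination, where the 16 peaks had a median score of 76.5. MC_2580 and RA 0.01 µM thus had the wider H3K4me3 peaks, and RA 1 µM and the combination the narrower ones.

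Before the gene, the 117 kb of the upstream part held little but GFI1. Of its 50 peaks 44 were GFI1 peaks, 5 were the same H3K4me1 peak at the outer edge called once per condition (chr8:128698658-128701966 in DMSO, score 466), and 1 was a H3K4me2 peak of 0.609 kb in the combination. The H3K27ac cover there, 14.6 kb in DMSO, is the upstream end of the peak on MYC.

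LSD1, the target of MC_2580, had 18 peaks in the locus in DMSO and 16 with the inhibitor. None lay upstream of MYC. In DMSO 10 lay in the 500 kb part and 7 far downstream, and with MC_2580 10 and 5. Of the DMSO peaks 13 overlapped an MC_2580 peak, so 5 of 18 were lost, against 7.79% of the list, and 4 of the 16 MC_2580 peaks were gained, against 41.4%. The lists had been filtered at different scores, with a lowest score of 234 in DMSO and 357 with MC_2580. Of the 5 lost peaks, those at chr8:129122008-129124128 (score 343) and chr8:130717060-130718728 (score 257) were below the MC_2580 minimum.

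The LSD1 peak with the highest score in DMSO lay in E6 (chr8:128995839-129002138, score 3100, 6.30 kb), and the MC_2580 peak over it reached 14.6 kb with a score of 3163. The next were in E21 (chr8:130667841-130678530, 10.7 kb, score 1674 in DMSO and 3100 with MC_2580) and in E2 (chr8:128887404-128894575, 7.17 kb, score 1633 in DMSO and 2472 with MC_2580). Each was called in both lists. Further high DMSO peaks lay in E20 (chr8:130634920-130637739, score 949), in E23 (chr8:130744362-130749462, score 712) and in E10 (chr8:129129360-129132595, score 592). Peaks called with MC_2580 and not in DMSO included one of 13.5 kb at chr8:128873553-128887083 in E2 and one of 7.21 kb at chr8:130615686-130622899 in E20. All 18 DMSO LSD1 peaks lay on H3K4me1 of DMSO, as did 95.8% of the whole list. On H3K27ac of DMSO lay 11 (61.1%), against 78.6% of the list. These were 3 of 10 in the 500 kb part, 7 of 7 far downstream and the 1 on MYC.

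Every LSD1 peak of the locus also lay on a GFI1 peak, 18 of 18 in DMSO and 16 of 16 with MC_2580. Over the whole lists 56.8% and 44.7% of LSD1 peaks did so. This full overlap stands beside an unusual number of GFI1 peaks in the locus, which covered 17.1% of its bases against 0.863% of the genome. What part the dense GFI1 calls have in the overlap was not tested.

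GFI1 had 271 peaks in the locus, 30.1% of all its 901 peaks on chromosome 8. That is 118 per Mb, against 6.16 per Mb over the chromosome and 9.62 over the genome. The calls had a median width of 0.964 kb and a median score of 113, against 0.752 kb and 72.7 over the whole GFI1 list. They lay in 2 stretches in which neighbours were at most 100 kb apart, a limit set after seeing the data. The first, chr8:128094149-129232298, is 1138 kb long, begins before the locus and holds 153 of its GFI1 peaks. The second, chr8:130308839-130779364, is 471 kb long and holds 117. Between them, over more than 1 Mb, there was 1 GFI1 peak. All LSD1 peaks of the locus lie inside the same 2 stretches, which is nearly given by their overlap with GFI1 peaks. The second stretch starts 1486 kb past the gene, well before E20 at 1792 kb, and ends within 1 kb of the end of E23.

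The dense GFI1 calls did not track H3K4me1 everywhere. Of the 44 GFI1 peaks upstream of MYC, 1 (2.27%) lay on a DMSO H3K4me1 peak, against 57.4% of the 108 in the 500 kb part, 62.7% of the 118 far downstream and 58.5% of the whole list. LSD1 in DMSO was present on 11.8% of the locus' GFI1 peaks, against 30.0% of the list. The highest-scoring upstream peaks, at chr8:128749294-128754101 (score 917) and chr8:128706163-128710632 (score 886), carried none of the 4 histone marks in any condition and no LSD1.

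Downstream, the top GFI1 peaks by score did coincide with marked elements or flanked them, but this did not hold for every high-scoring peak. In the 500 kb part these were chr8:128906297-128915786 (9.49 kb, score 2269), on LSD1 in DMSO and on H3K4me1 in 4 conditions but on no H3K27ac peak, and chr8:128889320-128894512 (5.19 kb, score 1749) in E2 on LSD1 in both lists. Far downstream they were chr8:130636552-130637509 (0.958 kb, score 1813) in E20 and chr8:130672296-130678243 (5.95 kb, score 1066) in E21, both on LSD1 in both lists and on H3K27ac in 4 and 5 conditions. The next by score in the 500 kb part was chr8:128838945-128843125 (score 1392). It lay on H3K4me1, H3K4me2 and H3K4me3 in 5 conditions but on no LSD1 or H3K27ac peak. Another there, chr8:128831658-128834279 (score 904), lay on H3K4me1 in 1 condition and on no other histone mark or LSD1.

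Other parts of the genome had GFI1 calls as dense. Counted in 1 Mb windows, the window from chr8:128000001-129000000 held 272 GFI1 peaks, which tied at rank 3 of 3092 windows, where the median window with a peak held 6. The other 9 of the 10 densest windows lay on chromosomes 19, 12 and 9. The 2 input libraries were not analysed here, so whether reads without antibody also pile up in these windows was not tested.

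**Figure D5:**
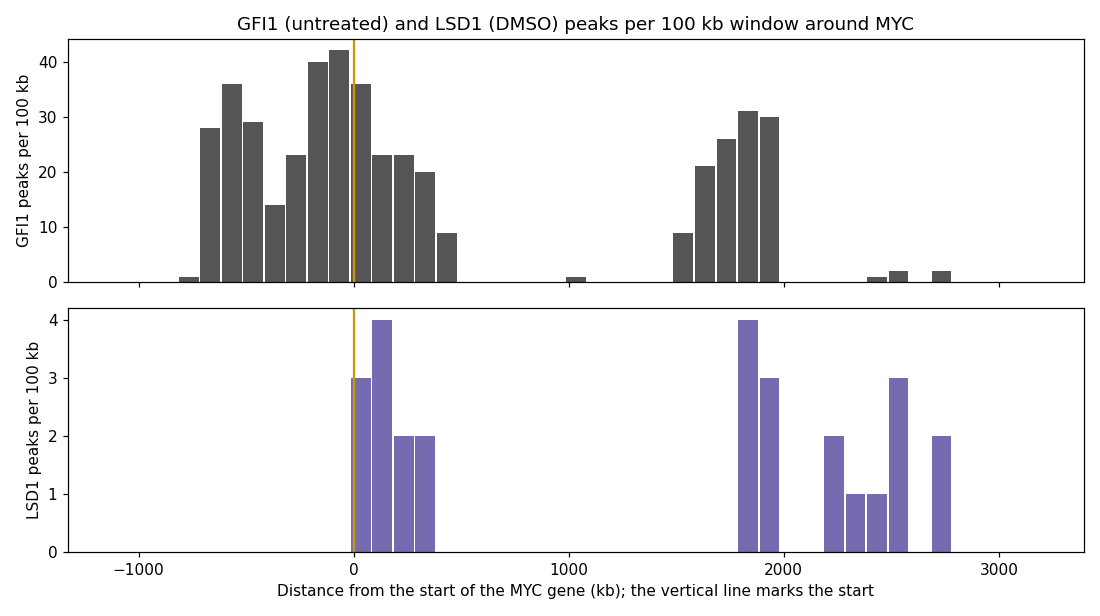
Number of GFI1 peaks in untreated cells (top) and of LSD1 peaks in DMSO (bottom) per window of 100 kb around MYC, with the distance from the start of the gene in kb on the horizontal axis and the gene as a vertical line. GFI1 calls form 2 blocks with 1 peak between them, the first reaching upstream of MYC where the locus has no LSD1 peak.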

How the data were processed

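ChIP-seq peak lists of NB4 cells were used as deposited, 1 list per library, in 23 of 25 samples; the 2 inputs have no list here. The build was hg18 and the tools named, per the submitters' processing notes, were MACS 1.4.1, Bowtie 1.0.1, CASAVA 1.8, bcl2fastq 2 and FastQC (0.10.0 and 0.11.5); their roles are not named. The score in each deposited list is the authors' value per peak. It starts at 50 in histone and GFI1 lists, and the LSD1 lists hold only part of the numbered peaks, under a filter whose rule no source used here gives.

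Samples were grouped by antibody and treatment from the labels. In Python 3.11.15 (SciPy 1.17.1, NumPy 2.4.6), peaks overlapping the locus were taken, put in the gene part if they overlapped it and otherwise in the part holding their midpoint. Covered bases were clipped at each part's limits, so a part can have cover without a peak of its own. Peaks overlapping by 1 base counted as shared. Figures were drawn with Matplotlib 3.10.9. Simulated lists of 20000 peaks were used to test the code. Positions named were E1, the 5 elements with the most H3K27ac in each downstream part, elements with H3K27ac in all 3 RA libraries but not DMSO, and the highest-scoring LSD1 and GFI1 peaks; not every one is printed, and single lost or gained LSD1 peaks were named after their values were seen. The interval, its parts and these lists were chosen with earlier results of these data known. Alternatives were a minimum score of 100, lists of equal length, joining within 1 kb, whole peaks per part, fixed widths, 50% reciprocal overlap, a near part of 300 kb, 5 kb added to the gene and 1 minimum score for both LSD1 lists. No sequence is printed.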

Additional observations from a re-analysis of the deposited data

How the results depend on the processing

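The log2 ratios of H3K27ac cover over DMSO kept their direction under a minimum score of 100, joined peaks, whole peaks per part, a near part of 300 kb and a longer gene. In the 500 kb part RA 0.01 µM gave 0.070 with lists of equal length against 1.24 as reported. With 500 bases on either side of each centre, which by construction measures the number of peaks, the 500 kb part gave 2.50 with RA 0.01 µM, 2.12 with RA 1 µM and 2 in the combination. The far part then gave -1 with MC_2580, 0.58 with RA 1 µM (-0.29 as reported, so its sign also turned) and, reversed, 0.32 with RA 0.01 µM and 0.32 in the combination. Of 64 counts of gained and lost peaks, 28 moved by more than 1.5 times under a 50% reciprocal overlap and 36 under a minimum score of 100. Under the reciprocal overlap the gained H3K27ac peaks of the 500 kb part stayed at 14, 10 and 9 in the 3 RA libraries. Far losses were then 7, 3 and 6 of the 8 DMSO peaks, against 4, 2 and 4. A wide DMSO peak called in short pieces counts as lost under this rule. The whole lists' shares under it were not computed, so these counts have no scale beside them. A shared minimum score for both LSD1 lists left 13 peaks in DMSO and 16 with MC_2580. No paired analysis was possible because each antibody and condition has 1 library. Read depth and signal below the calling threshold were not used, and they limit every statement on a missing peak.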
